A study of Mus musculus with 4 samples.

Results

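A small number of PB3 cells exposed repeatedly to eribulin were placed by the authors in chromatin clusters made up almost wholly of untreated cells. These eribulin cells were chosen by their deposited cluster number, as the cells of the 2 eribulin libraries in cluster 2, 3, 4, 6, 8, 9, 14 or 16. They numbered 227 of 24838 eribulin cells and of 43782 cells in all, with 100 from single-cell ATAC-seq (scATAC) and 127 from the chromatin side of a multiome assay, which reads RNA and accessibility in the same nucleus. Cluster numbers were drawn by the authors from accessibility in peaks, so the share of cells in these clusters, and the position of the cells among others, describe the choice itself and were not tested.

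PB3 is a mouse mammary tumor cell line. Treated cells were exposed to 500 nM eribulin for 72 h and then left for 48 h, and went through 4 such rounds. Control cells received no drug, and all cells came from the same line and medium. Untreated and eribulin cells were profiled by scATAC in run 1 and by multiome in run 3, with 1 library in each of the 4 groups. Because each group was 1 library, no test between groups was made. Each result is given for both protocols side by side, and the labels do not say whether their treated cells came from 1 culture. Brackets hold exact 95% binomial (Clopper-Pearson) intervals for shares, which cover counting error over cells only.

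Eribulin binds the growing ends of microtubules and arrests dividing cells in mitosis. In ATAC-seq the Tn5 transposase cuts DNA that is not wrapped tightly, so that cut sites mark open chromatin, and the length of the fragments tells whether a nucleosome lay between the cuts. The nucleosome signal of a cell is the ratio of fragments spanning a nucleosome to shorter, nucleosome-free fragments. Lentiviral lineage barcodes are short DNA tags written into the genome of a founder cell and passed to all of its descendants, so that cells with the same tag form a lineage.

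The 4 libraries held between 8114 and 16724 cells and between 49446970 and 127710435 cut sites in peaks. The same 10x cell barcode can occur in 2 libraries of a run. Of the 100 eribulin scATAC cells in untreated clusters, 1 had a cell barcode that also occurred in the untreated scATAC library (1.00%, 0.0253 to 5.45). In the other eribulin scATAC cells the count was 214 of 16624 (1.29%). Of the 127 multiome cells, 2 shared a cell barcode with the untreated multiome library (1.57%, 0.191 to 5.57), against 121 of 7987 other eribulin cells (1.51%). In 1 of the 3 shared pairs the untreated cell lay in the same cluster, and none of the 3 eribulin cells had a called lineage.

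Eribulin cells in untreated clusters made up 0.598% (0.487 to 0.727) of the eribulin scATAC library and 1.57% (1.31 to 1.86) of the eribulin multiome library. Of the untreated libraries, 98.7% (scATAC) and 98.2% (multiome) of cells were in these clusters. Within a run, 1.07% of the scATAC cells and 1.33% of the multiome cells of these clusters came from the eribulin library.

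In scATAC the eribulin cells were found mainly in clusters 4 and 16. Cluster 4 held 31 of the 100 cells (22.1 to 41.0), close to the 31.6% of untreated scATAC cells of the same 8 clusters. Cluster 16 held 26 (17.7 to 35.7), whereas it held 1.19% of the untreated scATAC cells of these clusters. It was the most mixed of the 8, with 26 eribulin cells among its 136 scATAC cells (19.1%, 12.9 to 26.7). Clusters 3 and 8 held 14 and 12 of the 100 cells, against 17.7% and 13.7% of the untreated cells. Cluster 6 held 7 (2.86 to 13.9), against 15.4%, and cluster 2 held 6 (2.23 to 12.6), against 1.36%. Cluster 9 held 2 of the cells (0.243 to 7.04) and 13.1% of the untreated cells, and cluster 14 held 2 and 5.94%.

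In the multiome library cluster 2 held 39 of the 127 eribulin cells (30.7%, 22.8 to 39.5), against 35.2% of the untreated multiome cells of these clusters. Clusters 6 and 8 held 26 cells each (20.5%, 13.8 to 28.5), against 15% and 11.9% of the untreated cells. Cluster 3 held 14 cells, cluster 14 held 7, cluster 16 held 6, cluster 9 held 5 and cluster 4 held 4. Cluster 9 was low in both protocols, with 3.94% (1.29 to 8.95) of the multiome cells against 11.8% of the untreated ones. The large part of cluster 16 seen in scATAC was not found in the multiome library, where it held 4.72% (1.75 to 10.0) of the eribulin cells and 1.50% of the untreated ones. Clusters 2 and 4 divided by run in untreated cells. Cluster 4 held 31.6% of those of scATAC and 0.977% of those of multiome, and cluster 2 held 1.36% and 35.2%.

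**Figure D1:**
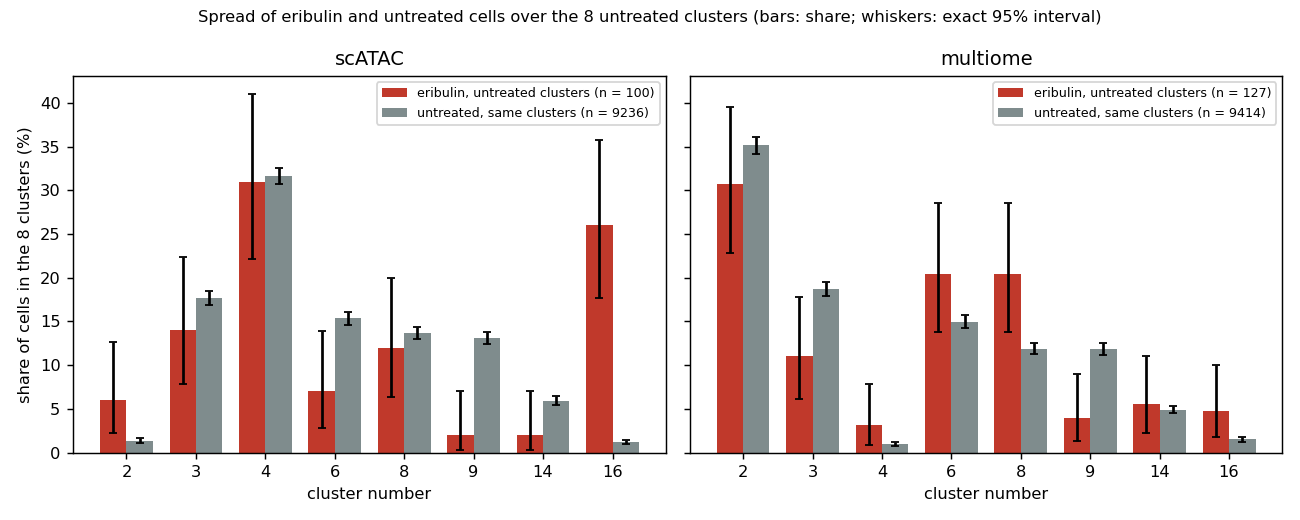
Share of cells (%, vertical axis) in each of the 8 untreated clusters (horizontal axis) for eribulin cells (red) and untreated cells (grey) of these clusters, with scATAC on the left and multiome on the right. Bars give the share and whiskers its exact 95% interval. Cluster 16 stands out in scATAC, with 26.0% of the eribulin and 1.19% of the untreated cells.

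The name of the clusters was then set against the position of each cell on the deposited UMAP, a map that puts cells of like accessibility close together. The map was made from the same peaks as the clusters and gives no independent evidence. The larger library of each run was thinned to the size of the smaller, and the 30 nearest cells were counted. Untreated cells formed on average 53.1% of the neighbours of the scATAC eribulin cells in untreated clusters and 58.5% of those of the multiome cells. The averages were 3.76% and 6.46% for the other eribulin cells, and 96.4% and 93.6% for untreated cells of the same clusters.

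These averages joined cells of unlike position. More than 50% untreated neighbours were found for 51 of the 100 scATAC cells and for 82 of the 127 multiome cells (64.6%, 55.6 to 72.8). At the other end, 29 scATAC cells (29.0%, 20.4 to 38.9) and 30 multiome cells (23.6%, 16.5 to 32.0) had at most 10% untreated neighbours. The cluster number of this last set named an untreated cluster while the cells around them on the map were nearly all eribulin cells. Untreated cells of the same clusters had at most 10% untreated neighbours in 104 of 9236 cases in scATAC (1.13%) and 151 of 9414 in multiome (1.60%). For the eribulin cells of this last set map position and cluster number disagreed, and the map, made from the same peaks, cannot decide between them. The whole set is therefore called by its cluster numbers here, and not as cells in an untreated state.

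**Figure D2:**
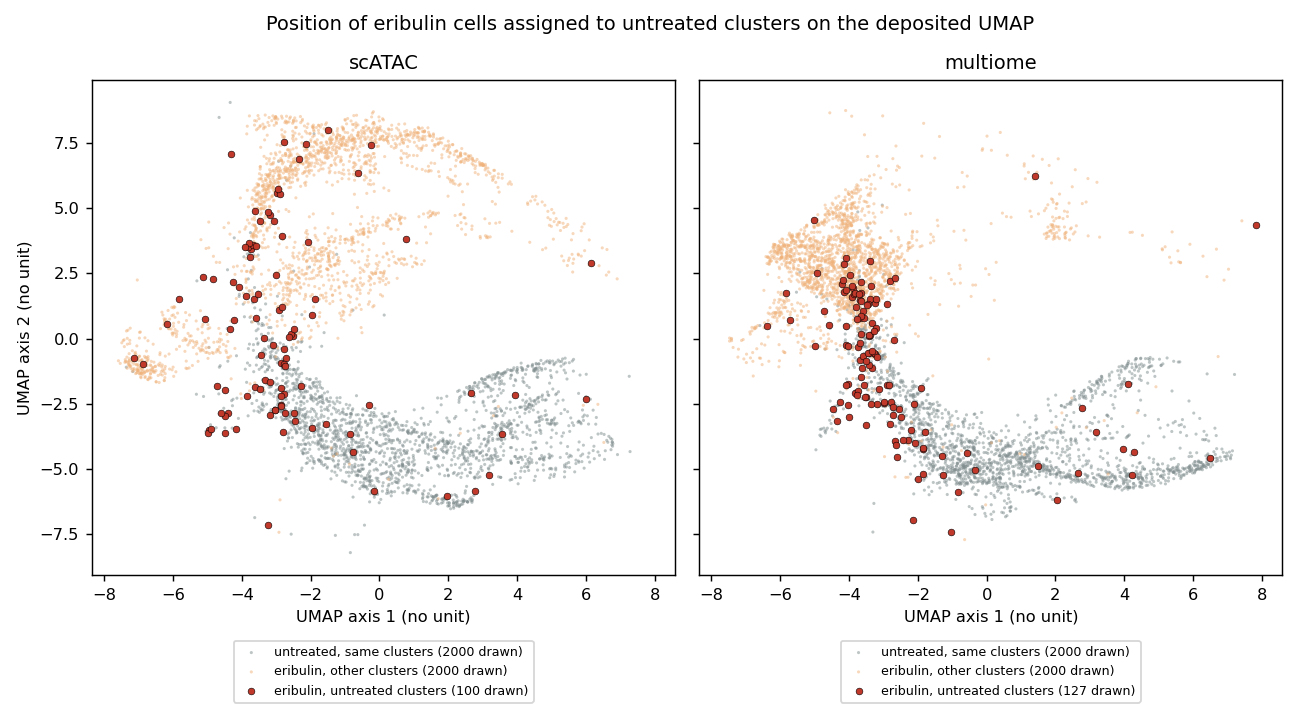
Deposited UMAP (both axes without unit) with eribulin cells of the untreated clusters in red, up to 2000 other eribulin cells in orange and up to 2000 untreated cells of the same clusters in grey, with scATAC on the left and multiome on the right. The red cells lie partly among untreated and partly among eribulin cells: 51 of 100 in scATAC and 82 of 127 in multiome had mostly untreated neighbours.

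**Figure D3:**
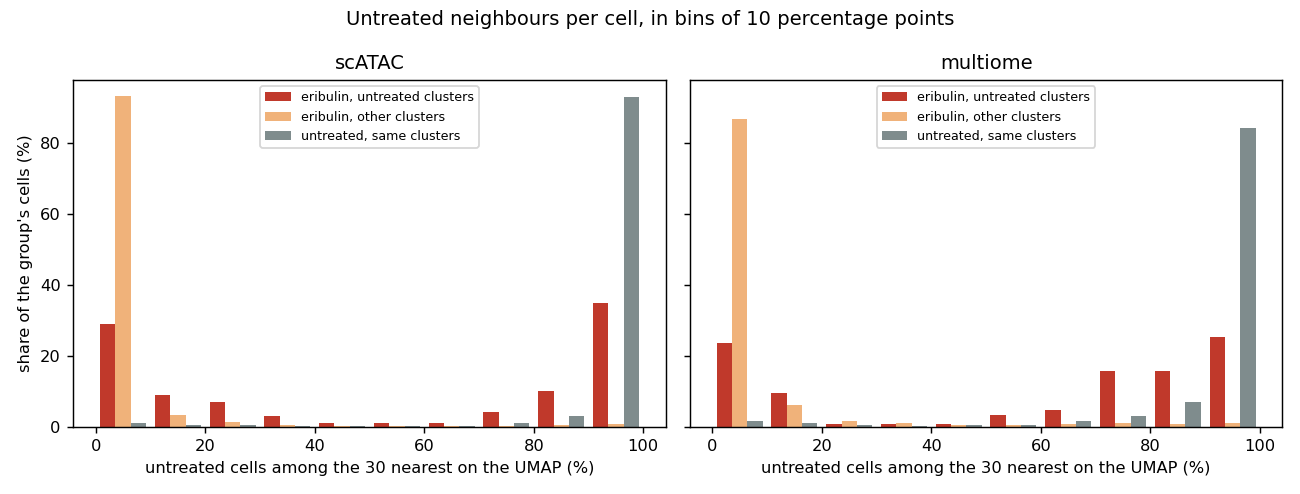
Share of each group's cells (%, vertical axis) by the percentage of untreated cells among their 30 nearest cells on the UMAP (horizontal axis, bins of 10 points). Eribulin cells of the untreated clusters (red) fill both ends of the axis, with 29.0% of the scATAC and 23.6% of the multiome cells at or below 10%.

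The position on the map was not sharp in the other direction either. Outside the untreated clusters, 302 of 16624 eribulin scATAC cells and 322 of 7987 eribulin multiome cells also had more than 50% untreated neighbours. These exceeded the 51 and 82 such cells inside the untreated clusters. Of the 302 scATAC cells, 74 lay in cluster 7 and 67 in cluster 11, and of the 322 multiome cells 199 lay in cluster 0.

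The next comparison asked whether the fragments of these cells were packed like those of untreated cells or like those of their own library. The nucleosome signal was not used to draw clusters, although it was computed from the same fragments. In the 100 scATAC cells it ranged from 0.348 to 1.23 with a median of 0.777 (quartiles 0.685 and 0.883). The median of the other eribulin scATAC cells was 0.756 (0.692 and 0.823), and that of untreated scATAC cells of the same clusters was 1.07 (0.984 and 1.16). The median therefore lay 0.0218 above the other eribulin cells, a small step beside the spread between quartiles. Its difference from the untreated cells was -0.291, or -27.2%. Against untreated medians taken in bins of depth and weighted to the depth of these cells, the difference was -0.287.

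The multiome cells gave a like picture. Their nucleosome signal ranged from 0.461 to 1.09 with a median of 0.654 (quartiles 0.592 and 0.732). It was 0.669 (0.607 and 0.739) in the other eribulin nuclei and 0.906 (0.815 and 1.01) in untreated nuclei of the same clusters. The difference of medians was -0.0145 from the other eribulin nuclei and -0.251, or -27.8%, from the untreated ones. Against untreated medians weighted by depth in the same way it was -0.241.

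Most of the cells, and not only their median, were on the eribulin side. In scATAC 95 of 100 cells (88.7 to 98.4) and in multiome 121 of 127 cells (95.3%, 90 to 98.2) lay below the untreated median of their own cluster. Cells nearer to the median of the other eribulin cells than to the untreated median numbered 83 of 100 (74.2 to 89.8) in scATAC and 112 of 127 (88.2%, 81.3 to 93.2) in multiome. By the same measure this held for 92.4% and 85.4% of the other eribulin cells and for 10.0% and 18.0% of the untreated cells. The ranges overlapped, since the lowest untreated cells of these clusters had 0.589 in scATAC and 0.460 in multiome.

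The eribulin median was below the untreated one in each of the 8 clusters in both protocols. In the multiome library the medians by cluster ran from 0.617 in cluster 16 (6 cells) to 0.750 in cluster 4 (4 cells), while untreated nuclei ran from 0.846 in cluster 6 to 0.983 in cluster 2. In scATAC they ran from 0.622 in cluster 9 (2 cells) to 0.941 in cluster 2 (6 cells), and the untreated cells from 1.02 to 1.14. The 26 scATAC cells of cluster 16 had a median of 0.846 (quartiles 0.815 and 0.924), above the 0.744 of the 31 cells of cluster 4. With cluster 4 left out, the scATAC distance to untreated cells was -0.228 in place of -0.291, and with cluster 2 left out the multiome distance was -0.214 in place of -0.251.

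Position on the map made little difference to this measure. Cells with more than 50% untreated neighbours had a median nucleosome signal of 0.798 in scATAC (51 cells) and 0.660 in multiome (82 cells). The remaining cells had 0.771 (49 cells) and 0.637 (45 cells). Fragment length depends on the transposition and size selection of each library, and with 1 library per group the treatment and the library cannot be told apart.

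**Figure D4:**
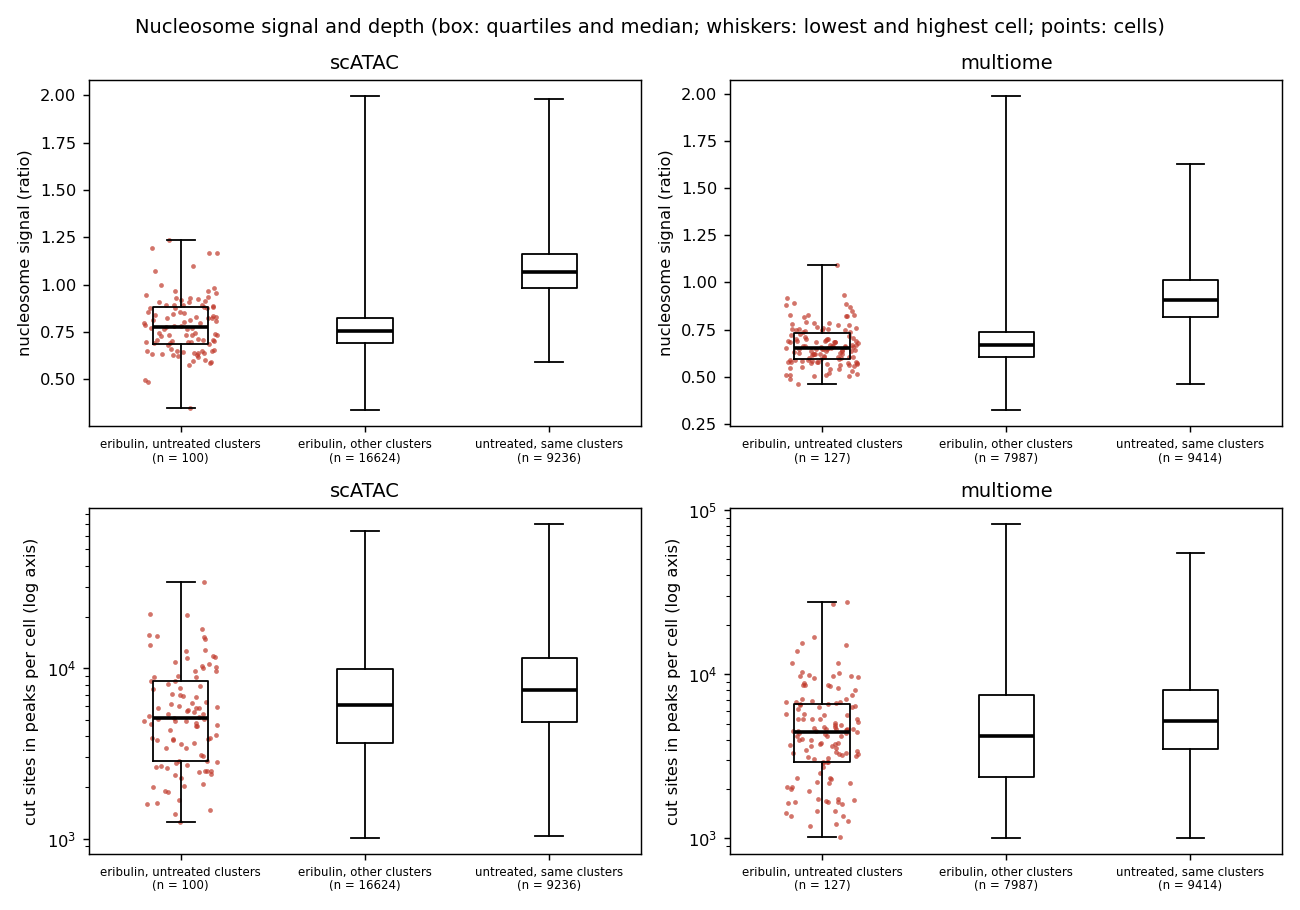
Nucleosome signal (top, ratio) and cut sites in peaks per cell (bottom, log axis) in eribulin cells of untreated clusters, other eribulin cells and untreated cells of the same clusters, with scATAC on the left and multiome on the right. Boxes give quartiles and median, whiskers the lowest and highest cell, and red points the single eribulin cells of untreated clusters. The red cells have medians of 0.777 and 0.654, beside 0.756 and 0.669 in other eribulin cells and 1.07 and 0.906 in untreated cells.

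Depth, the number of cut sites in peaks per cell, was lower in these cells than in untreated cells of the same clusters. In scATAC it ranged from 1260 to 32272 with a median of 5072.5 (quartiles 2842 and 8387), against 7451.5 in the untreated cells, a ratio of 0.681. In multiome it ranged from 1025 to 27676 with a median of 4475.0 (2915 and 6608), against 5226.5, a ratio of 0.856. The median was lower than in untreated cells in 6 of the 8 clusters in each protocol. Relative to the other eribulin cells the cells were shallower in scATAC (5072.5 against 6057.5, ratio 0.837) and of about the same depth in multiome (4475.0 against 4227.0, ratio 1.06). Cells below the 5th percentile of untreated depth numbered 18 of 100 in scATAC, against 11.9% of other eribulin cells, and 18 of 127 in multiome (14.2%), against 15.3%. The median number of peaks with a cut was 4649.5 in scATAC, against 5477 in other eribulin and 6601.5 in untreated cells, and 4127 in multiome, against 3935 and 4797.5. The multiome ratio fell below 1 when means were taken in place of medians, at 0.875, and without cluster 2, at 0.993.

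The other quality measures differed little. The enrichment of cuts at transcription start sites had a median of 4.86 in the scATAC cells, against 5.04 in other eribulin cells and 4.99 in untreated cells of the same clusters. In multiome it was 4.96, 5.07 and 5.01. Among scATAC cells with mostly untreated neighbours the first difference was 0.0153 in place of -0.186, so its direction was lost there. Gene activity per cut site in peaks, the sum of cuts assigned to genes divided by the cut sites in peaks, had a median of 0.942 in the scATAC cells, between 0.921 in other eribulin and 0.973 in untreated cells. In multiome the 3 medians were 0.971, 0.971 and 0.976.

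Cells with several lineage barcodes can be 2 cells caught together, and such calls were rare in eribulin cells of any cluster. None of the 100 scATAC cells and none of the 127 multiome cells was called doublet or multiplet, where a count of 0 gives limits of 3.00% and 2.36% by the rule of 3 counts and of 3.62% and 2.86% by the exact interval. Among the other eribulin cells 5 of 16624 (0.0301%) were so called in scATAC and 62 of 7987 (0.776%) in multiome. Both shares lie below these limits, so the counts of 0 do not set the cells apart from the other eribulin cells. Among untreated cells of the same clusters 1 of 9236 (0.0108%) was so called in scATAC and 847 of 9414 (9.0%) in multiome. Such calls need at least 2 detected barcodes and miss pairs without them.

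Lineages were compared next, a measure that the clusters did not use. None of the 100 scATAC cells had a called lineage, with limits of 3.00% by the rule of 3 counts and 3.62% by the exact interval, and 0.505% of the other eribulin scATAC cells had one. The lineage results therefore rest on the multiome library alone. There 38 of the 127 cells (29.9%, 22.1 to 38.7) had a single called lineage, against 1353 of 7987 other eribulin cells (16.9%, 16.1 to 17.8) and 49.7% of untreated cells of the same clusters. The deposited name also gave the tag's bases in 19 of the 38 calls (50.0%) and in 353 of the 1353 (26.1%). This form was found in 0 of the 4682 calls of untreated cells of the same clusters. The shares of called cells therefore mix forms of name that were not equally used in the groups. Among cells at or above the median depth of the library, 20 of 67 had a call (29.9%).

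The 5 lineages with most cells in the eribulin multiome library over all clusters were 76-49517, 6-93034, 95-33662, 55-23349 and 39-41529. Because 1353 of the 1391 called cells of that library lay outside the untreated clusters, these 5 were picked almost wholly through the other eribulin cells. Their larger share there is partly fixed by that choice, and the values are a description. They accounted for 13 of the 38 cells (34.2%, 19.6 to 51.4), and for 9 of 19 (47.4%) where only names without bases were counted. The same 5 made up 1231 of the 1353 called cells of the other eribulin clusters (91.0%, 89.3 to 92.5) and 1.64% of called untreated cells of the same clusters. In the eribulin scATAC library, which had no part in the choice, they made up 80 of the 84 called cells, all outside the untreated clusters. Called eribulin cells outside the untreated clusters that had mostly untreated neighbours on the map carried these 5 lineages in 58 of 67 cases (86.6%, 76.0 to 93.7). The 38 cells held 15 distinct lineages, against 22 in the 1353 other eribulin cells.

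The lineage names join the number of a short part with the number of a long part. The lineages called in at least 2 of the 38 cells are shown because the result turns on telling them apart. Each tag has 48 bases, with a short part of 14 bases, a linker at bases 15 to 18 from the 5′ end, in capitals, and a long part of 30 bases.
76-49517: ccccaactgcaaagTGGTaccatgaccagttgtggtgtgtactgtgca
6-93034: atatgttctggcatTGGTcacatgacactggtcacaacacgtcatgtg
55-98358: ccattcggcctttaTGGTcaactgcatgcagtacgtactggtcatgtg
55-99383: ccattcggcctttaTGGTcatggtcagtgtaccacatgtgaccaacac
55-37135: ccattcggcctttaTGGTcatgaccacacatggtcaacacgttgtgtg
51-38039: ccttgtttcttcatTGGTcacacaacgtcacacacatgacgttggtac
13-72181: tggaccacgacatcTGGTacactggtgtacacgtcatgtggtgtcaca
43-75462: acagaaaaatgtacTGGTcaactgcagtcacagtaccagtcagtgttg
71-88522: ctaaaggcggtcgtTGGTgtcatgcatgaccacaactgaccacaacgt

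Lineages 55-98358, 55-99383 and 55-37135 have the same short part, as does the frequent lineage 55-23349. Their long parts differed from one another at 16 to 22 of 30 bases. Over all pairs of the 17 lineages described here the long parts differed at 14 bases or more. The 19 cells whose deposited name also gave the tag's bases matched the deposited list in 19 cases.

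The share of each lineage's eribulin cells in untreated clusters was then taken. The number of eribulin cells that made a lineage frequent is also the denominator of this share, so a lower share in the frequent lineages is partly fixed by the choice. Of the 1244 eribulin multiome cells of the 5 frequent lineages, 13 lay in untreated clusters (1.05%, 0.558 to 1.78). Of the 147 cells of the 22 other lineages, 25 lay there (17.0%, 11.3 to 24.1), and the share was 19.8% with lineage 55-98358, the largest contributor, left out. Cells of 1 lineage share a founder and are not independent, which the intervals do not count. Cells without a detected barcode gave 88 of 6622 (1.33%, 1.07 to 1.63). Among names written with bases the counts were 4 of 258 and 15 of 114, and among names written without bases they were 9 of 986 and 10 of 33, so that the direction was the same in both forms.

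Among the rarer lineages, those that were common without drug had the larger share. The 15 rarer lineages with at least 10 untreated multiome cells had 16 of 44 eribulin cells in untreated clusters (36.4%, 22.4 to 52.2). The 7 rarer lineages with fewer untreated cells had 9 of 103 (8.74%, 4.07 to 15.9), and 46 of the 103 cells were of lineage 55-98358. The eribulin cells of a lineage are the denominator here too, and these 7 lineages held more of them than the 15. Size after eribulin and number without drug were not separated. In the 5 frequent lineages this split gave 5 of 630 (0.794%, 0.258 to 1.84) for the 3 lineages with at least 10 untreated cells and 8 of 614 (1.30%, 0.564 to 2.55) for the other 2. Of the rarer lineages, 10 had no cell in the untreated clusters, with 39 eribulin cells between them.

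The frequent lineages were represented by few cells each. Lineage 76-49517, the most frequent after eribulin, had 8 of its 438 eribulin multiome cells in untreated clusters (1.83%, 0.792 to 3.57), with 3 in cluster 3, 2 each in clusters 6 and 16 and 1 in cluster 8. Their nucleosome signal ranged from 0.490 to 0.869. On the map these 8 cells parted sharply, 3 with no untreated neighbour and 5 with 76.7% to 100%. Its 2 untreated multiome cells both lay in cluster 3. Lineage 6-93034 had 4 of 403 cells there (0.993%, 0.271 to 2.52), with 3 in cluster 6 and 1 in cluster 8, and 5 of its 12 untreated cells lay in cluster 6. Lineage 39-41529 had 1 of 81 cells, in cluster 2, which held 34 of its 40 untreated cells. Lineages 95-33662 and 55-23349 had 0 of 176 and 0 of 146 cells in untreated clusters, with limits of 1.70% and 2.05% by the rule of 3 counts and of 2.07% and 2.49% by the exact interval.

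Of the lineages described here with the short part 55, 3 had eribulin cells in untreated clusters, while the frequent lineage 55-23349 had 0 of 146. The share over all 22 rarer lineages was 17.0%, for scale. Lineage 55-99383 had 4 of its 12 eribulin cells there (33.3%, 9.92 to 65.1), all in cluster 2, which also held 30 of its 36 untreated cells. Untreated cells formed 0.0%, 0.0%, 16.7% and 80.0% of their neighbours, so that 3 of the 4 sat among eribulin cells on the map although their cluster was that of their untreated relatives. The nucleosome signal of the 4 ran from 0.619 to 0.816. Lineage 55-37135 had 3 of 11 (27.3%, 6.02 to 61.0), with 2 in cluster 2 and 1 in cluster 4, and 43 of its 57 untreated cells lay in cluster 2. Lineage 55-98358 had 5 of 46 (10.9%, 3.62 to 23.6), with 4 in cluster 6 and 1 in cluster 8. All 5 had mostly untreated neighbours, from 56.7% to 100%. The 4 cells in cluster 6 were shallow, with 1362 to 2339 cut sites, and the cell in cluster 8 had 4903, beside a median of 4475 for all 127 cells. It had no untreated multiome cell, and its other 41 eribulin cells were mostly in cluster 0, with 30. Lineage 71-88522 had 2 of 9 eribulin cells in untreated clusters (22.2%, 2.81 to 60.0), 1 each in clusters 2 and 3, with 1438 and 1365 cut sites.

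A further 5 lineages, with 8 cells, were seen after eribulin in the untreated clusters and in no other eribulin cell of either protocol, where few scATAC cells had a call. Lineage 51-38039 had 2 cells, both in cluster 8, which held 20 of its 30 untreated cells. Lineage 43-75462 had 2 cells, both in cluster 6, which held 12 of its 20 untreated cells. Lineage 13-72181 had 1 cell in cluster 2, which held 23 of its 31 untreated cells, and 1 in cluster 4. Lineages 69-34430 and 80-66251, named because they complete this set, had 1 cell each, in clusters 9 and 2. Those clusters held 21 of 28 and 5 of 6 of their untreated cells.

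The 8 cells of these 5 lineages had a nucleosome signal from 0.529 to 0.936 with a median of 0.663. The lowest value was in the cell of 80-66251 and the highest in the cluster 2 cell of 13-72181. Of the 8 cells, 6 lay below 0.787, the midpoint of the other eribulin and untreated medians, and 2 lay above it, in 13-72181 and 43-75462. Their median did not stand apart from the 0.661 of the 13 cells of the frequent lineages or from the 0.653 of the 89 cells with no single lineage. More than 50% untreated neighbours were found for 6 of the 8 cells and for 9 of the 13.

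**Figure D5:**
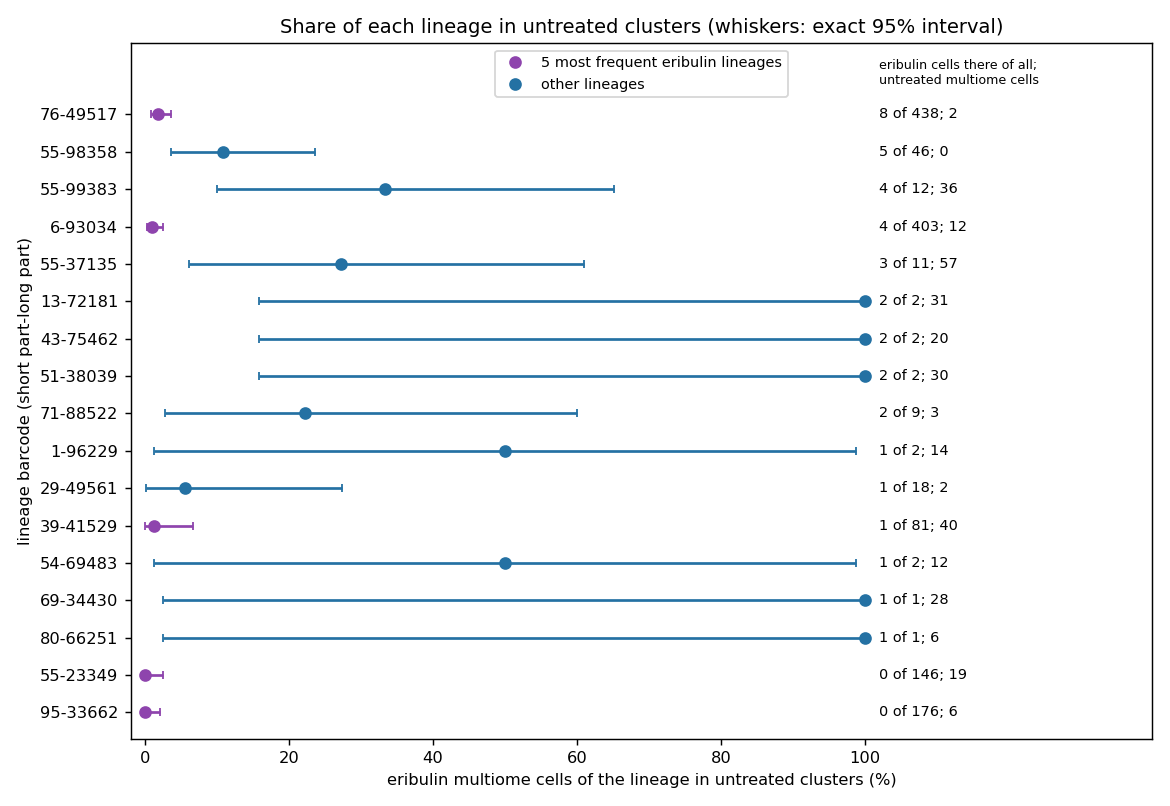
Share of each lineage's eribulin multiome cells that lay in untreated clusters (%, horizontal axis) for every lineage called in such a cell and for the 5 most frequent lineages (vertical axis, short and long part of the name). Points give the share, whiskers its exact 95% interval, and the numbers at the right the cells behind it and the untreated multiome cells of the lineage. The frequent lineages (purple) lie between 0.0% and 1.83%, the other lineages (blue) at 5.56% or above, where a lineage without a cell in these clusters is not drawn unless it is 1 of the 5.

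For lineages with enough untreated cells, eribulin cells in untreated clusters lay mostly in the cluster that the lineage had occupied without drug. For 10 lineages with at least 10 untreated multiome cells, the cluster with most untreated cells was taken as the lineage's main cluster, from untreated cells alone. Of the 21 eribulin cells of these lineages in untreated clusters, 17 lay in that main cluster (81.0%, 58.1 to 94.6), as did 209 of the 280 untreated cells of the same lineages (74.6%, 69.1 to 79.6). The latter share chose the main clusters and is given for scale. Without the 5 frequent lineages the count was 13 of 16 (81.3%, 54.4 to 96.0). The lineages left out for fewer untreated cells matched less often. Lineage 76-49517 had 3 of its 8 cells in its main untreated cluster, 71-88522 had 1 of 2, 80-66251 had 1 of 1 and 29-49561 had 0 of 1. The 5 cells of 55-98358 had no untreated relative, and the 89 cells with no single lineage could not be compared.

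The 4 cells outside the main cluster were 1 each of lineages 55-37135, 13-72181 and 54-69483, which lay in cluster 4 where the main cluster was 2, and 1 of lineage 6-93034. With clusters 2 and 4, which divided by run in untreated cells, taken as 1 cluster, 20 of the 21 cells matched. Cluster 2 held 30.7% of all 127 cells, and clusters 6 and 8 held 20.5% each, which gives the scale of matches to these clusters. Of all 38 called cells, 24 (63.2%, 46.0 to 78.2) carried a lineage also called in untreated cells of the same cluster, and 33 (86.8%, 71.9 to 95.6) carried one called anywhere in the untreated multiome library. The 5 cells that did not were those of 55-98358.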

How the data were processed

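Chromatin accessibility in PB3 cells was taken from a table of cells, UMAP coordinates per cell and 10000000 listed lentiviral barcodes. Per the series' design text, matrices were made with cellranger-atac 1.2.0 (run 1) and cellranger-arc 1.0.0 (run 3) on mm10, and cells were filtered and clustered with Signac 1.1.1. The sources used here do not say how libraries were integrated or lineages called. Cut sites and gene activities were deposited as raw counts for each cell. Nucleosome signal and start site enrichment were deposited as a ratio for each cell, and UMAP axes as a unitless score, per the file headers.

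Medians, quartiles, shares with exact 95% intervals and UMAP neighbours (30 nearest, libraries of a run thinned to equal size) were computed with scipy 1.17.1, numpy 2.4.6 and pandas 2.3.3 in Python 3.11.15, and drawn with matplotlib 3.10.9, and neighbour counting was tested on simulated data. A count of 0 was given the limit of 3 counts. With 1 library per group no test was made. Groups came from sample titles. Cells called doublet or multiplet were kept except for lineages. Lineages named are those called in at least 2 of the cells described and the 5 most frequent of the eribulin multiome library, and others are named where a set is completed. Barcode names of different forms were joined by the numbers of their parts. No gene values were analysed here, and clusters are given by number. The cells and the lists were chosen with earlier results of these data known.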

Additional observations from a re-analysis of the deposited data

Results flagged for a closer look

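Depth relative to the other eribulin cells went in opposite directions in the 2 protocols. The ratio of median cut sites was 0.837 in scATAC and 1.06 in multiome. The nucleosome signal relative to the other eribulin cells also had opposite signs, with a difference of medians of 0.0218 in scATAC and -0.0145 in multiome. Each protocol gave 1 pair of libraries, and the difference between protocols was not tested.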

How the results depend on the processing

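Over 24 results and 85 alternatives, 73 values kept their direction and lay within a 95% interval of the reported value. Another 9 moved beyond it and 3 changed direction. For ratios and differences the interval was that of the median of these cells, with the comparison value held fixed. For the average share of untreated neighbours it treated the mean as a count of cells. Some of the 73 were fixed in advance. Any part of a set with a count of 0 also has 0. No cell here was called doublet or multiplet, so leaving such cells out could not change their neighbour share. No paired analysis was possible because each group held 1 library. The alternatives on called cells could not be run in scATAC, where no cell had a called lineage. The share of scATAC cells with a call did have alternatives, at 0 of 69 and 0 of 37 cells. Membership from UMAP neighbours gave 2.11% of the eribulin cells in scATAC and 4.98% in multiome in place of 0.598% and 1.57%. Without cluster 16 the scATAC share was 0.442%. Without the fullest cluster, the nucleosome signal relative to untreated cells was -0.228 in scATAC and -0.214 in multiome, and the share of scATAC cells with a shared cell barcode was 0.0% (0 of 69 cells). The multiome depth ratio to other eribulin cells reversed to 0.875 with means and to 0.993 without cluster 2, and the scATAC difference in start site enrichment reversed to 0.0153 among cells with mostly untreated neighbours. Counting any cluster of the untreated multiome library, in place of the same cluster, raised the share of called cells with an untreated lineage to 86.8%. Chosen after the data were seen, names without bases gave 30.3% for the rarer lineages in untreated clusters. Joining clusters 2 and 4, also chosen then, gave 95.2% of cells in their lineage's main cluster (20 of 21 cells). The causes were not tested. The lineage results rest on 38 called cells.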
